A study of Mus musculus with 2 samples.

Results

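Mucin genes were followed in RNA of the glandular stomach of mice aged 26 weeks. Members were taken by a rule on names, set with earlier results of these data known. It took every probe whose symbol was Muc followed by a digit, together with Dpcr1, a mucin-like gene that RefSeq now calls Mucl3. The rule found 15 probes for 9 genes, of 25697 probes and 16905 genes on the array. These were Muc1 (4 probes), Muc4, Muc10 and Muc13 (2 probes each), and Muc5ac, Muc6, Muc15, Muc20 and Dpcr1 (1 probe each). The file lists symbols in capitals (MUC1, MUC5AC, MUC6, MUC13, DPCR1), which are written here as mouse gene names. Muc10 is now called Prol1.

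The study hybridized biotin-labelled total RNA of 1 Agr2 null mouse and 1 Agr2 wild-type mouse, both labelled female, to Illumina MouseRef-8 v2 bead arrays, which read each transcript as a fluorescence intensity. The sources used here give neither the strain of the mice nor the kind of Agr2 deletion. With 1 array per genotype label no difference had a replicate check, so differences are described by size and none carries a p-value or an error. Both arrays are of whole tissue, in which fewer cells of a type and less RNA per cell cannot be told apart.

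Mucins are large glycoproteins whose serine- and threonine-rich repeats carry dense O-linked sugars. Gel-forming mucins are secreted and joined by disulfide bonds into the mucus gel, while membrane mucins stay anchored on the apical surface of epithelial cells. In the stomach, Muc5ac is the main mucin of surface mucous cells and Muc6 that of the neck and gland mucous cells. Agr2, an endoplasmic reticulum protein of the disulfide isomerase family, is needed for the production of intestinal mucin in mice.

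The Agr2 probe did not follow the labels: its signal was 3406 on the array labelled null and 972 on the array labelled wild-type, a normalized value 3.13-fold higher on the array labelled null. The sources used here do not say whether this probe lies in the deleted part. A probe outside it and an exchange of the labels, which would turn every direction given here, cannot be told apart. The arrays are therefore called by their labels throughout, and higher or lower always means on the array labelled null, compared with the other. Mean signal over all probes was 925 on the array labelled null and 811 on the array labelled wild-type. Signals at or below background are those not above the 99th percentile of 1314 probes for olfactory and vomeronasal receptors, which was 227 on the array labelled null and 200.4 on the array labelled wild-type.

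Promoters of the member genes were looked up because several membrane mucins were higher on the same array. RefSeq promoters of the GRCm38.p6 build, each 250 bases before to 50 bases after the start of transcription, were found for 7 of the 9 genes, with 8 start sites in all. None was found for Muc5ac and Muc15. The promoters of the detected genes that were higher on the array labelled null and held a match to a searched motif follow, each 5′ to 3′ on the strand of its gene. Capitals mark matches on either strand to 5 motifs. The TATA box was searched as TATAAA, and the GC box, a site of Sp1, as GGGCGG. The core of sites for STAT factors was searched as TTCNNNGAA, that for forkhead factors of the Foxa group as TGTTTA, and that for Gata factors as AGATAA. No match overlapped another in the promoters shown.
Muc1, chr3:89228806-89229105, plus strand: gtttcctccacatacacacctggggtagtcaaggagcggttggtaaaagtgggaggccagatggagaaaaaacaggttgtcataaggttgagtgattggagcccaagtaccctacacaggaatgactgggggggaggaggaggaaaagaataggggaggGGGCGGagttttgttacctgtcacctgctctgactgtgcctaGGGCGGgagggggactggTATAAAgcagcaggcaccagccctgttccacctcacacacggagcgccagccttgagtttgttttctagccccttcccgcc
Muc13, chr16:33793787-33794086, plus strand, first start site: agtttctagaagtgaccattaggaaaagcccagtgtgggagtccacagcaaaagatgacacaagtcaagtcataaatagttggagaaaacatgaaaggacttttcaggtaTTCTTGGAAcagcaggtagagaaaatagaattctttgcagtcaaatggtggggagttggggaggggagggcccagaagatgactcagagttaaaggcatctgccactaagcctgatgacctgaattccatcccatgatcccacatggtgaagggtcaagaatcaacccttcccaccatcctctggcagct
Muc4, chr16:32735636-32735935, plus strand: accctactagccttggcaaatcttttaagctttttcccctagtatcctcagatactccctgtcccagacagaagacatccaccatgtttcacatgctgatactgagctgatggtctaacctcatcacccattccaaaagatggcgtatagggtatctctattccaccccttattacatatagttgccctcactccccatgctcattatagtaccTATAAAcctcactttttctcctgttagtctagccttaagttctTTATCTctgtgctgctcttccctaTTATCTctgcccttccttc
Muc6, chr7:141655344-141655643, minus strand: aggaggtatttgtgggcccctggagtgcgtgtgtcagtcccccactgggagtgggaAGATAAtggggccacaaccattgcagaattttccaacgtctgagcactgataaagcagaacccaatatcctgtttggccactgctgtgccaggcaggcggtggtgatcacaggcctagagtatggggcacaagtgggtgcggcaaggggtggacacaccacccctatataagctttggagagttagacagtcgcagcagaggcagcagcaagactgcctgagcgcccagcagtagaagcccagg

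No motif was found in all 4 printed promoters, though Muc1 and Muc4 both held a TATA box, and Muc4 and Muc6 both held a Gata core. Muc1 held a TATA box at position -31 (bases before the start site count down from -1) and 2 GC boxes, at -91 and -49. Muc4 held a TATA box at -36 and 2 Gata cores on the opposite strand, at positions 8 and 32 after the start. Muc13 held 1 STAT core, at -140 of the first start site, and no match at its second start site. Muc6 held 1 Gata core, at -194. The Dpcr1 promoter held no match. Among all 32851 promoters in the table, 13.6% held the TATA box, 35.7% the GC box, 8.30% the STAT core, 13.4% the Foxa core and 11.2% the Gata core. A match describes letters and not a bound site.

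The mucins split by gene. Muc5ac was lower on the array labelled null, Muc4, Muc13 and Muc6 were at least 2-fold higher, Muc1 was higher by all 4 of its probes but at the 2-fold line by its brightest, and Dpcr1 was within 2-fold. Of the 9 genes, 6 were above background on at least 1 array. Muc4 did so on the array labelled null alone, and so could only differ upward. Over the 6 detected genes, 3 were at least 2-fold higher, against 13.1% of all 9353 detected genes, and 1 was at least 2-fold lower, against 17.1% of all detected genes. Among genes detected on both arrays, which leaves Muc4 out, 2 of 5 mucin genes were at least 2-fold higher, against 10.6% of 7628 genes, and 1 was lower, against 10.7%. By probes, 7 of 11 detected mucin probes were at least 2-fold higher, against 16.4% of all 12049 detected probes, and 1 was at least 2-fold lower, against 15.4%. Of the 9 mucin probes detected on both arrays, 5 were higher, against 12.1% of 9575 probes, and 1 was lower, against 9.91%. The median log2 difference was 1.04 over the 6 mucin genes and 0.0036 over all detected genes.

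**Figure D1:**
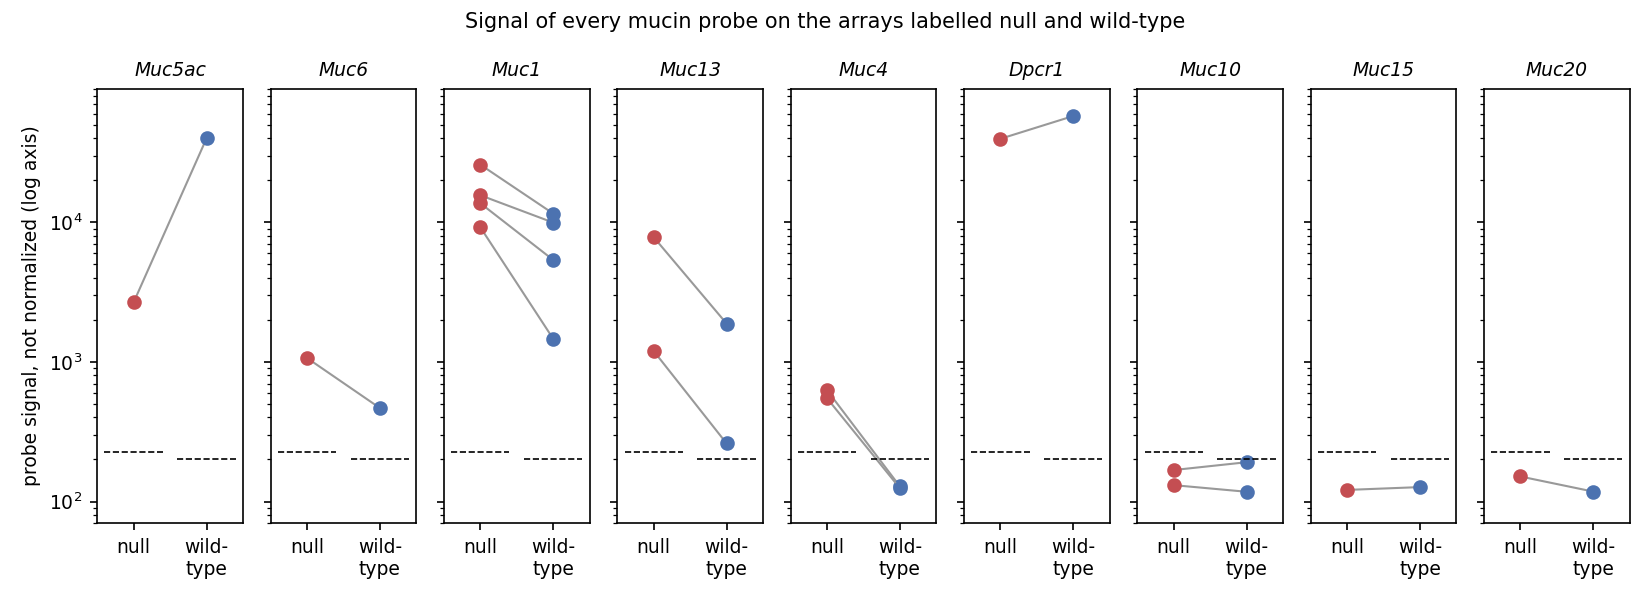
Each point is the signal of 1 probe, not normalized, on a log axis, with the array labelled null (red) left of the array labelled wild-type (blue), and lines join the values of 1 probe. Dashed lines mark the background limit (null 227, wild-type 200.4). Muc5ac falls far lower on the array labelled null, all probes of Muc1, Muc13 and Muc4 are higher there, and Muc10, Muc15 and Muc20 stay below the dashed lines on both.

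Muc5ac, the gel-forming mucin of surface mucous cells, read 2669.5 on the array labelled null, against 39881 on the array labelled wild-type. Signals of over 40000 are close to the upper limit of the array and compress differences, and the wild-type value lay just under this level. After background correction and quantile normalization the log2 difference was -4.07, or 16.8-fold lower, and only 134 of the 9353 detected genes (1.43%) had a more negative difference. Over 13 ways of processing, some of which cannot change a gene with 1 probe detected on both arrays, the value lay between -4.22 and -4.01. Among other products of surface mucous cells, the gastrokines Gkn1 and Gkn2 and the trefoil peptide Tff2, which neck cells also make, differed by 0.23, 0.25 and 0.08 on the log2 scale. All 3 had signals of over 40000 on both arrays, so these values say little about the size of any difference.

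Muc6, the gel-forming mucin of neck and gland mucous cells, read 1067 on the array labelled null, against 467 on the array labelled wild-type. Both signals lay above background. The normalized value was 2.12-fold higher (log2 difference 1.08), with 11.6% of detected genes more positive. It was close to the 2-fold line and lay under it without background correction, at 0.90. Of 5 mucous neck markers, among them Muc6 itself, 4 were at least 2-fold higher. Their signals summed to 98202 on the array labelled null and 49688 on the array labelled wild-type. Most of these sums came from Tff2 and Gkn3. Tff2 was near the ceiling on both arrays (46750 on null, 45896 on wild-type), and Gkn3 read 47368 on null and 2368 on wild-type. The sums therefore say little about the size of a difference in neck markers. The part of these markers in the Muc6 difference was not tested.

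Muc6 and Muc5ac are close neighbours in the genome. On mouse chromosome 7 the protein-coding order in the GRCm38.p6 annotation is Ap2a2, Muc6, Muc2, Muc5ac, Muc5b and Tollip. The log2 differences of Muc6 and Muc5ac, each read within its own probe, lay 5.16 apart. This contrast is independent of the scaling between arrays where 1 factor per array is used, since such a factor moves both genes equally. Muc4 and Muc20 are likewise next to each other on chromosome 16, which also holds Muc13 further along. Muc4 was detected and Muc20 was not.

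Muc1, a membrane mucin of most simple epithelia whose cytoplasmic tail takes part in signalling, was read by 4 probes, all detected on both arrays. The probes are numbered from the highest mean normalized value to the lowest. Probe 1 of Muc1 read 25856 on the array labelled null and 11532 on the array labelled wild-type. Probe 2 had 15608 on the array labelled null and 9943 on the array labelled wild-type, and probe 3 had 13683 on the array labelled null and 5368 on the array labelled wild-type. Every one of these was higher on the array labelled null.

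Probe 4 of Muc1 stood apart. Its signal was 9206 on the array labelled null and 1462 on the array labelled wild-type, a normalized log2 difference of 2.52 (5.72-fold). The differences by probes 1, 2 and 3 were 0.99 (1.99-fold), 0.50 (1.41-fold) and 1.17 (2.24-fold). The direction was thus shared by 4 of 4 probes, while the size ranged over 2.02 on the log2 scale. Disagreement of this size was seen for other genes too. Among the 44 genes with 4 probes detected on both arrays, the median range between probes was 1.29, and 6 genes had a wider range than Muc1. Averaged over its probes the Muc1 difference was 1.29, which lies past 2-fold, whereas its brightest probe lay just inside. The sequences and positions of the probes are not in the tables used here, so which transcripts of Muc1 each one reads was not tested.

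Muc13, a membrane mucin of gastrointestinal epithelium, was read by 2 probes. Probe 1 of Muc13 read 7818 on the array labelled null and 1881 on the array labelled wild-type, a normalized value 3.65-fold higher (log2 difference 1.87). Probe 2 had 1197 on the array labelled null and 261 on the array labelled wild-type, the last value not far above the 99th percentile of background. It gave a log2 difference of 2.56 (5.90-fold), and 1.95 without background correction. Both probes were thus past 2-fold under both treatments, and 3.43% of detected genes had a more positive difference than probe 1. The range of 0.69 between the probes compared with a median range of 0.38 over the 1227 genes read by 2 probes.

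Muc4, a large membrane mucin with growth-factor-like domains that can associate with the receptor ErbB2, was above background on the array labelled null alone. Its probes had signals of 627 and 549 there, against 128 and 124 on the array labelled wild-type, where the median of the background probes was 123. The fold is therefore a bound, taken against the lowest normalized value that a detected probe had on that array, which exceeded the values of both Muc4 probes. Without background correction, which gives the smaller bound, Muc4 was at least 2.65-fold higher by probe 1 and at least 2.33-fold higher by probe 2. After background correction the bounds were 4.65-fold and 3.95-fold.

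**Figure D2:**
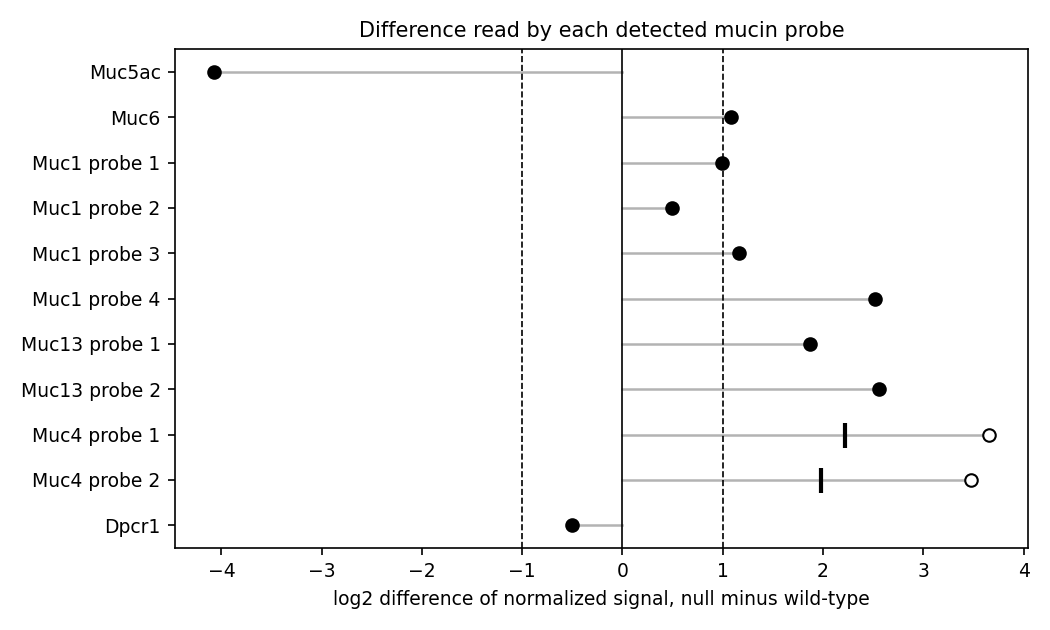
Log2 difference of the normalized signal (array labelled null minus array labelled wild-type) for the 11 detected mucin probes, with 2-fold marked by dashed lines. Filled points are probes detected on both arrays; open points are the 2 Muc4 probes, not above background on wild-type, with a tick at the bound (2.22 and 1.98). Muc5ac lies at -4.07, and the 4 Muc1 probes spread from 0.50 to 2.52.

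Dpcr1, whose human counterpart encodes a mucin-like membrane protein, read 39590 on the array labelled null and 57640 on the array labelled wild-type. The second value was the highest of any probe on that array, and thus at the ceiling. The normalized log2 difference was -0.51 (1.42-fold lower), with 28.6% of detected genes more negative, and -0.73 with the authors' scaling. At such signals differences are compressed, so this value does not show that the arrays had equal Dpcr1.

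Muc10, Muc15 and Muc20 were not above background on either array. Muc10, a salivary gland mucin in mice, had signals of 168 and 131 on the array labelled null and 191 and 117 on the array labelled wild-type for its 2 probes. Muc15, a membrane mucin, had 121 on the array labelled null and 127 on the array labelled wild-type. Muc20, also a membrane mucin, had 151 on the array labelled null and 118 on the array labelled wild-type. No fold is given for these 3 genes.

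**Figure D3:**
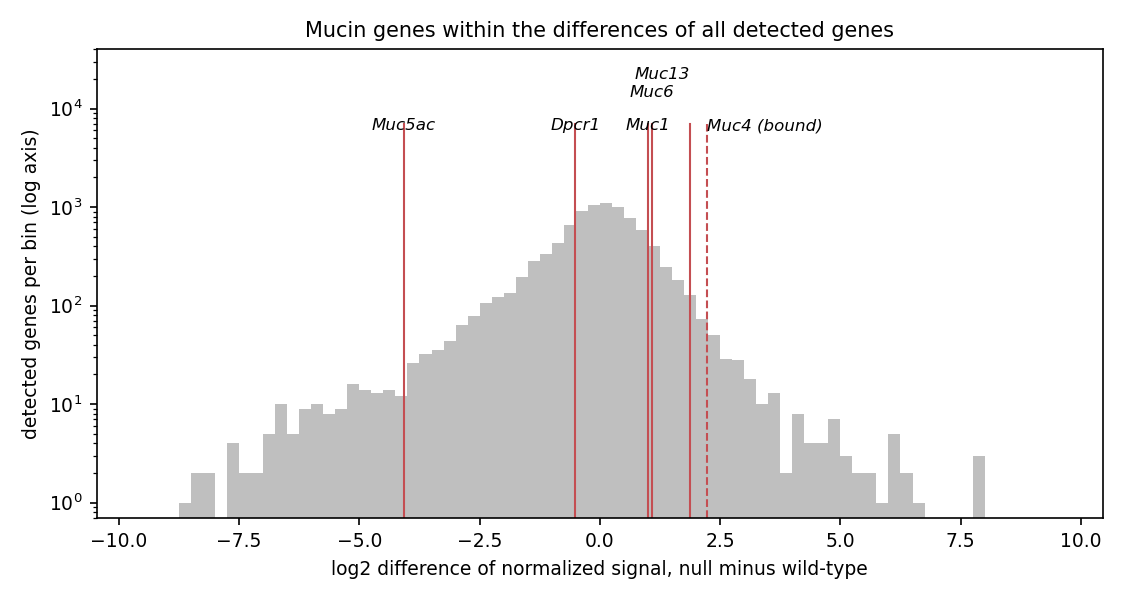
Number of detected genes per bin of log2 difference (array labelled null minus array labelled wild-type), with counts on a log axis, and red lines at the 6 detected mucin genes by their brightest probe (dashed for Muc4, at its bound of 2.22). Muc5ac lies in the low tail with 1.43% of genes below it, Muc13 lies in the upper tail with 3.43% above it, and Dpcr1 at -0.51 lies near the centre.

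**Figure D4:**
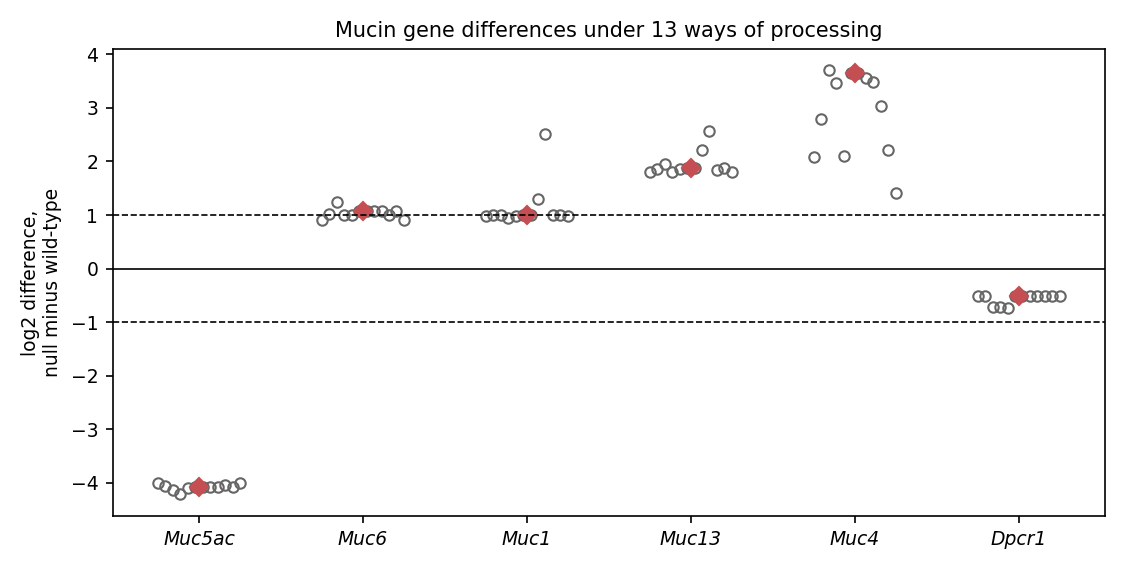
Log2 difference of each detected mucin gene (array labelled null minus array labelled wild-type) under 13 ways of processing; red diamonds are the values reported and open circles the alternatives, spread sideways so that they can be seen. Muc5ac stays between -4.22 and -4.01 and Muc13 above 1.81, while Muc6 and Muc1 lie around the 2-fold line (dashed).

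Other cell types differed in the same RNA. The 5 parietal cell markers summed to a signal of 4907 on the array labelled null and 152726 on the array labelled wild-type, and all 5 were at least 2-fold lower. Squamous epithelium markers summed to 5293 on the array labelled null and 135453 on the array labelled wild-type (6 of 7 lower, 1 higher). Smooth muscle markers summed to 26584 on the array labelled null and 98011 on the array labelled wild-type. Of these, 6 of 6 were at least 2-fold lower, or 5 when dim genes were set to their bound. Pancreatic acinar markers summed to 17957 on the array labelled null and 73571 on the array labelled wild-type (5 of 6 lower). Endocrine markers summed to 6637 on the array labelled null and 71207 on the array labelled wild-type (3 of 4 detected lower, 1 higher). Neutrophil markers went the other way, with 30579 on the array labelled null and 3247 on the array labelled wild-type (4 of 5 higher). Their part in the mucin differences was not tested.

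Enzymes that build the sugars of mucins were described as 2 groups. The first starts and branches O-glycans: polypeptide GalNAc transferases attach the first sugar to serine or threonine, and core enzymes extend it. At least 2-fold higher were 4 of 12 detected members, against 13.1% of all detected genes, and the other 8 stayed within 2-fold. Their median log2 difference was 0.82, against 0.0036 over all detected genes. Gcnt1, which makes the core branch, was 3.45-fold higher, or 2.12-fold without background correction. It read 507 on the array labelled null and 203 on the array labelled wild-type, where the background limit was 200.4. Of its 3 probes, only the brightest was detected. The GalNAc transferases Galnt1 and Galnt12 were 2.91-fold and 2.80-fold higher. C1galt1c1, the chaperone that the core galactosyltransferase needs for its activity, was 2.41-fold higher.

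Enzymes that extend and cap O-glycans went both ways. At least 2-fold higher were 3 of 15 detected members, against 13.1% of all detected genes, and at least 2-fold lower were 6, against 17.1%. The median was -0.80, or -0.51 when dim genes were set to their bound, which left 4 lower. Without background correction 3 were lower, and with the authors' values 2 were. A4gnt, which adds the terminal sugar typical of Muc6-bearing gland mucus, read 665 on the array labelled null, against 188, not above background, on the array labelled wild-type. It was at least 2.81-fold higher without background correction and at least 5.01-fold after it. The sialyltransferases were divided. St3gal4 was at least 3.14-fold higher without background correction (5.75-fold after it) and St3gal6 3.03-fold higher. St3gal3 was 5.39-fold lower, or 3.84-fold without background correction (362 on the array labelled null, 1159 on the array labelled wild-type). B3gnt7 was at least 1.02-fold lower, with a signal of 132 on the array labelled null and 201 on the array labelled wild-type.

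Partners of mucins in the mucus gel had the widest range of differences of the 6 lists. At least 2-fold higher were 5 of 10 detected members, against 13.1% of all detected genes, and at least 2-fold lower were 2, against 17.1%. The median was 1.59, or 0.93 when dim genes were set to their bound. Zg16, a lectin of intestinal mucus, was 33.9-fold lower (310 on the array labelled null, 5458 on the array labelled wild-type). Without background correction Zg16 was 20.4-fold lower. Tff3, a trefoil peptide of goblet cells, was at least 5.61-fold lower without background correction and 11.3-fold after it. The immunoglobulin transporter Pigr, the secreted protein Clca3 and the gastrokine Gkn3 were 30.5-fold, 30.0-fold and 19.3-fold higher. Clca genes form a family of similar sequence, so the value of Clca3 is uncertain. Zg16, Tff3 and Clca3 were also the 3 detected markers of goblet cells, of which 2 were thus lower and 1 higher.

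Regulators of mucous secretory cells were higher or within 2-fold. At least 2-fold higher were 7 of 16 detected members, Agr2 itself among them, against 13.1% of all detected genes. The other 9 stayed within 2-fold, and the median was 0.76. Creb3l1, a membrane-bound transcription factor of secretory cells, was at least 1.91-fold higher without background correction and 3.02-fold after it. The zymogenic factor Bhlha15 was 3.504-fold higher and Foxa1 3.36-fold higher. Bhlha15 is also 1 of 5 chief cell markers, whose signals summed to 49079.5 on the array labelled null and 155066 on the array labelled wild-type. Of the others, GIF was 24.6-fold and Chia1 42.7-fold lower, and Pgc and Pga5 stayed within 2-fold. Beside these, plasma cell markers summed to 3762 on the array labelled null and 1439 on the array labelled wild-type, and their part in the higher secretory genes was not tested.

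Among genes of granule secretion, the share that was lower lay near that of all genes. At least 2-fold lower were 2 of 12 detected members, against 17.1% of all detected genes, the other 10 stayed within 2-fold, and the median was -0.16. Sytl4, an effector of Rab27 on secretory granules, was 3.69-fold lower, or 2.92-fold without background correction. Genes that encode mucin-like or sialomucin proteins outside the naming rule, listed together with the adhesion molecule Mcam, had a median of -0.22. At least 2-fold lower were 3 of the 7 that were detected, against 17.1% of all detected genes, and none was higher, against 13.1%. These were Mcam, Cd34 and Cdhr5. Mcam, an endothelial and smooth muscle adhesion molecule, was 3.96-fold lower, with 3 probes between -2.06 and -1.86. The microvillar protein Cdhr5 was 2.28-fold lower. Cd34, an endothelial and progenitor sialomucin, was 2.84-fold lower, or 1.84-fold without background correction. Its signal on the array labelled null was 231, close to the background limit of 227. The count of lower members fell to 2 without background correction and to 1 with the authors' values. Smooth muscle markers were lower on the same array (median -2.50, or -2.30 with dim genes at their bound). Their part in the Mcam difference was not tested.

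**Figure D5:**
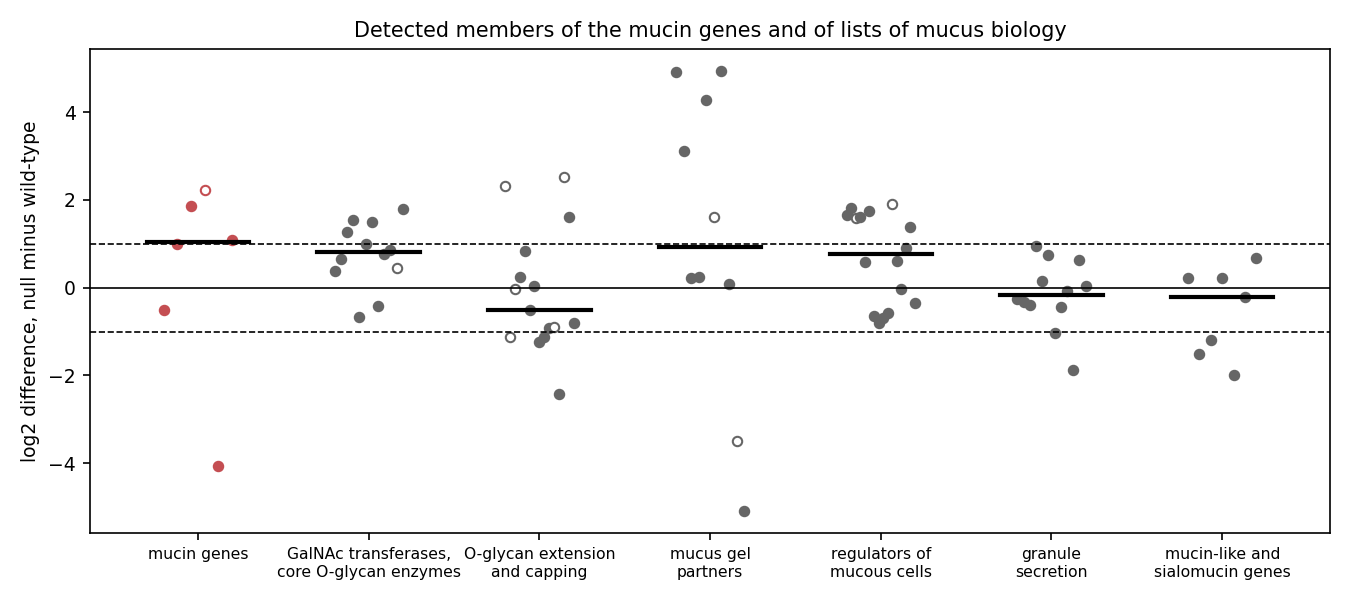
Points are detected genes, with the mucin genes in red and 6 lists of mucus biology in grey. Open points are genes below background on 1 array, drawn at their bound, and bars are medians of the values drawn; the vertical axis is the log2 difference (array labelled null minus array labelled wild-type), with 2-fold dashed. The mucin genes run from -4.07 to a bound of 2.22, the gel partners from -5.08 to 4.93, and the granule genes lie near 0 (median -0.16).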

How the data were processed

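The authors deposited linear intensity values, 1 per probe and array, in a table described as not normalized, which was the start here. A second table the authors deposited holds the same intensity values times 1 factor per array (0.842 for the array labelled null, 0.960 for the array labelled wild-type), found from the values. The sources used here do not give how bead signals were summarised. The files hold no detection p-values or control probes. In their place, 1314 olfactory and vomeronasal receptor probes, picked by name with the data in hand, set the background level. A normal-exponential background correction (limma 3.58.1, R 4.3.3, offset 16) was followed by quantile normalization and log2. A probe was detected where under 0.01 of background probes were as bright. Each gene stood for its probe with the highest mean. Of 18138 symbols, 14309 matched a RefSeq symbol, 2687 a synonym, and 1142 kept the file's name. No test was made with 1 array per group. The steps were run on a simulation with known folds, set only in probes of middle signal. It held no ceiling, and its changed probes lay neither near background nor at the level of the brightest Muc1 probe. It thus does not cover signals like those of Muc4, Muc5ac, Dpcr1 and that Muc1 probe. Named list members were the 5 largest differences of at least 2-fold, of which some are not reported here. The mucin genes and the lists were chosen with earlier results of these data known.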

Additional observations from a re-analysis of the deposited data

How the results depend on the processing

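Across 13 ways of processing (background, offset, scaling, detection, choice of probe), every detected mucin gene kept its direction. Muc5ac, Muc6 and Dpcr1 each have 1 probe, detected on both arrays. For them the settings for detection, choice of probe and bounds could only repeat the value of another setting. Muc5ac ranged from -4.22 to -4.01, Muc13 from 1.81 to 2.56, Muc4 from 1.40 (its bound without background correction) to 3.70 (against a value below background), Dpcr1 from -0.73 to -0.51, Muc6 from 0.90 to 1.23 and Muc1 from 0.95 to 2.52. Without background correction Muc6 fell under 2-fold (0.90) which left 2 mucin genes at least 2-fold higher (3 otherwise by the brightest probe). Muc1 passed 2-fold by the mean over probes (1.29) and by its dimmest detected probe (2.52), by construction of those settings. Over all genes, 679 were higher and 1012 lower without background correction, 799 higher and 933 lower with the authors' values, and 632 higher and 858 lower with dim genes at their bound without background correction. Scaling to equal medians gave 1454 higher and 1445 lower, a shift of 0.11 in the median of all genes, and cyclic loess gave 1060 higher and 1737 lower, against 1225 higher and 1597 lower as reported. The share of higher among these calls was 50.2%, 37.9% and 43.4% in that order. The median of the mucus gel partners was 0.90 without background correction, 0.79 with the authors' values, 0.25 without a filter on dim probes, 0.93 with dim genes at their bound and 0.59 with that bound taken without background correction. The settings for the saddle-point background and for both bounds were chosen after seeing the data. No paired analysis was possible because each genotype label has 1 array, so no replicate could be left out either. The other mucin genes and list medians stayed on their side of 2-fold, although the median of the mucin-like and sialomucin genes turned from -0.22 to 0.04 without a filter on dim probes, and 14 counts within lists moved by over 1.5 times; the cause was not tested. Signal over background limits Muc4, Muc6 and the second Muc13 probe, and the ceiling limits Dpcr1 and Muc5ac.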
